A study of Mus musculus with 4 samples.

Results

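Chemokine and interleukin genes were read from arrays that measured DNA copy number in mouse liver cells. The members were the autosomal genes whose names on the array start with Ccl, Cxcl, Ccr, Cxcr or Il followed by a digit. There were 113 such genes with 201 probes, among 20445 autosomal genes on the array. They comprise 15 CC ligands, 10 CXC ligands, 16 chemokine receptors, 38 interleukins and 34 interleukin receptors and associated proteins. Of the names, 111 are symbols of the RefSeq table of assembly GRCm38.p6 and 2 are synonyms there, Cxcr7 for Ackr3 and Il28ra for Ifnlr1.

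The study hybridised 4 samples of liver cell DNA, all of the genotype labelled TAK1LPC-KO_RIP3-_-, so there was 1 group. Per the title, liver parenchymal cells lacked TAK1, and the mice were also deficient in RIP3. DNA came from formalin-fixed, paraffin-embedded sections, was labelled with Cy5 and was set against 1 Cy3-labelled pool of DNA from 4 normal livers. The age, strain and sex of the animals and the promoter behind the deletion are not given in the sources used here, nor is the genotype of the pool beyond normal. All values are log2 ratios of sample over pool, centred on the autosomal median of each array, so 0 means the typical autosomal ratio. The pool is the only control, and each test against 0 takes no account of how normal livers vary. Without a dye swap, any dye bias of a probe remains part of its value. Whether the samples are from separate animals is not stated, and p-values reflect just the variation among these samples, possibly technical. A small change in all cells and a large change in some of them cannot be told apart in such DNA. The labels describe genomic DNA, whose ratios are not meant to measure expression, so markers are no check of the tissue label.

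Chemokines are small secreted proteins that guide leukocytes along concentration gradients. They are grouped into CC and CXC ligands by the spacing of conserved cysteines, and they act on G protein-coupled receptors. Interleukins are secreted signals between leukocytes and tissue cells, and most of their receptors are pairs of chains that share a signalling subunit. Many genes of both families arose by tandem duplication and still lie side by side on the chromosomes. In liver, Kupffer cells, hepatocytes and stellate cells produce several of them after injury. TAK1, encoded by Map3k7, is a kinase between TNF or IL-1 receptors and NF-kB, which drives many chemokine genes. RIP3, encoded by Ripk3, is required for necroptosis.

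Spots well above background made up 84.3% to 89.9% of an array for the sample and 94.4% to 97.7% for the pool. The spread between neighbouring log ratios was 0.38 to 0.42, beyond the limit that the scanner software sets, on each array. Replicates 1 and 2 shared 1 slide and replicates 3 and 4 another. Precision is limited by the small number of arrays. Of the member probes, 80.6% were well above background in both channels on all arrays, against 82% of all autosomal probes. The median GC content was 36.7% in both sets.

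As a group these genes lay where other autosomal genes did. Genes counted as called had a limma adjusted p under 0.05, over all autosomal genes, and a mean log2 ratio of at least 0.25 in size. By that rule 16 members lay above the pool, 21 lay below it and 76 did not pass. That is 32.7% of the members, against 35.4% of all autosomal genes, of which 16.1% were called higher and 19.3% lower. The share of members is near the share of all genes and is therefore no result about these genes. The shares by role, given below, were not tested against that of all genes. Nor do they allow for probe number, as most CC ligands have 1 probe and most interleukin receptors have more. Of all autosomal genes with 1 probe 41.8% were called, and of those with 2 or more 30.7%. The order of both shares turned in 6 of 16 alternatives, with 42.5% against 37.1% for the deposited log2 table and 34.5% against 29.5% with normexp background correction. The median of the members was 0.02, against -0.01 over all genes. On replicates 1, 2, 3 and 4 the median of the members was -0.03, 0.002, -0.01 and 0.01. The middle 95% of member means ran from -0.71 to 0.58, against -0.72 to 0.61 for all genes. All 4 arrays gave the same sign for 57 of 113 members, against 54.5% of all autosomal genes.

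**Figure D1:**
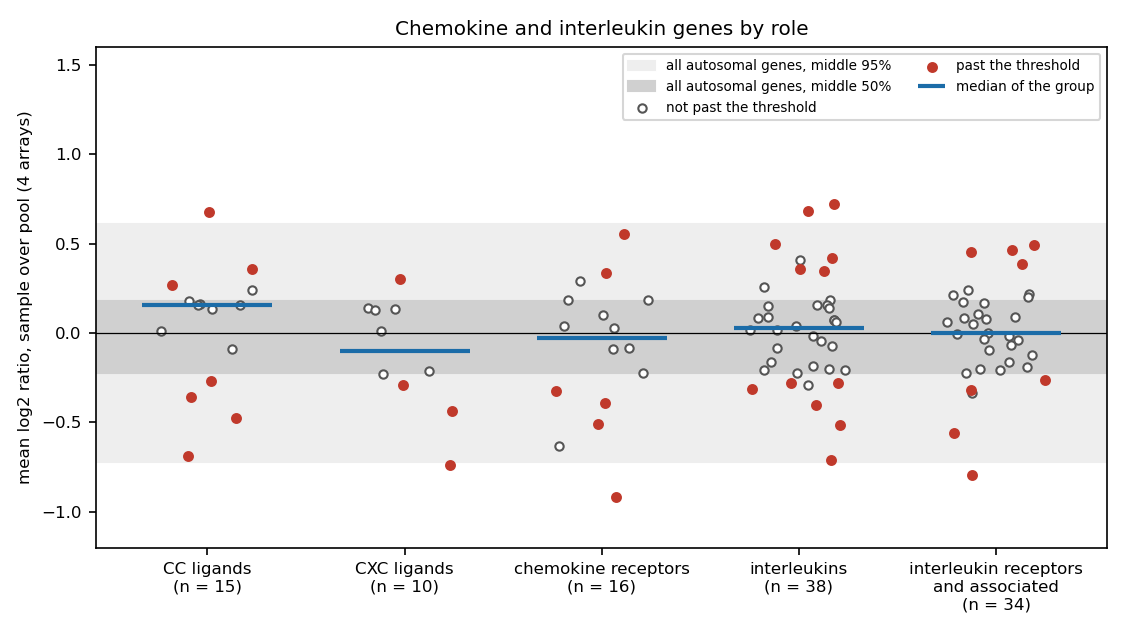
Mean log2 ratio of each member over 4 arrays (vertical axis, sample over pool), split by role on the horizontal axis. Filled points passed the threshold, open points did not, blue lines are group medians, and the grey bands hold the middle 50% and 95% of all autosomal genes. Called members lie on both sides of 0 in each role, and the medians run from -0.10 to 0.16.

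Among CC ligands, which mainly attract monocytes, eosinophils and T cells, 3 of 15 were called higher and 4 lower. The called share was 46.7%, against 35.4% of all genes, and the median was 0.16. Ccl11, the eosinophil attractant eotaxin, had arrays at 0.91, 0.60, 0.46 and 0.74. All arrays were above 0, and the mean was 0.68 ± 0.19 (SD, n = 4; limma, adjusted p = 0.00278) on 1 probe. Ccl12, a mouse monocyte attractant, had 0.32, 0.35, 0.38 and 0.39 on the 4 arrays. Its mean was 0.36 ± 0.03 (adjusted p = 0.00552), and its 3 probes had means from 0.22 to 0.53. The arrays of the gene mean lay close together, but the third probe, dim on some arrays, ran from -0.05 to 0.75 by itself. Ccl5, which attracts T cells, had 0.27 ± 0.11 (adjusted p = 0.0246). Without replicate 1 Ccl5 had an adjusted p of 0.0594, without replicate 3 of 0.085 and without replicate 4 of 0.0832. With normexp background correction Ccl5 had 0.07 (adjusted p = 0.364). Ccl12 had 0.23 with normexp, under the size limit.

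The lower CC ligands were Ccl1, Ccl4, Ccl8 and Ccl2, each on 1 probe. Ccl1, a ligand of the receptor Ccr8, had -0.95, -0.75, -0.33 and -0.72, a mean of -0.69 ± 0.26 (adjusted p = 0.00433). All arrays were below 0, but in the sample channel the probe was not well above background on any array. With the sample signal set at the floor of measurable probes, no fold below the pool was left, so no size is established. Ccl4, a macrophage inflammatory protein, had -0.67, -0.73, -0.14 and -0.35 (adjusted p = 0.0167). Ccl8, a relative of Ccl2, had -0.36 ± 0.29 (adjusted p = 0.0486). Ccl2, the main monocyte attractant of injured liver, had -0.46, -0.40, -0.07 and -0.15 (adjusted p = 0.0483). The calls of Ccl8 and Ccl2 lay close to the limit, and each was lost without replicate 1 (adjusted p = 0.0984 and 0.156) and without replicate 4 (0.126 and 0.0704). Ccl8 also lost its call without replicate 3 (adjusted p = 0.123) and Ccl2 without replicate 2 (0.153). The size of Ccl8 moved too, to -0.14 after a correction for GC content (adjusted p = 0.407) and -0.14 with normexp (0.105). Ccl2 had -0.18 relative to the chromosome median (adjusted p = 0.146) and -0.37 with normexp (0.00258). Over 15 alternatives Ccl8 kept its call in 4 and Ccl2 in 5. Ccl4 lost its call without replicate 1 (adjusted p = 0.0617) and without replicate 2 (0.0585). With normexp Ccl4 had -0.24, under the size limit. Ccl7, with arrays from -1.36 to 1.65, had the widest spread of all members and was well above background on only 1 array.

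Among CXC ligands, which act on neutrophils or lymphocytes, 1 of 10 was called higher and 3 lower (40%, against 35.4% of all genes). Their median was -0.10. Cxcl5, a neutrophil attractant, had -0.90, -0.98, -0.73 and -0.34 on the 4 arrays. All were below 0, with a mean of -0.74 ± 0.29 (adjusted p = 0.0044). Cxcl14, an epithelial chemokine, had -0.44 ± 0.13 (adjusted p = 0.00582) and Cxcl15, known from mouse lung, had -0.29 ± 0.12 (adjusted p = 0.0213). Cxcl13, the B cell attractant of lymphoid follicles, was the one called higher, at 0.23, 0.51, 0.01 and 0.46 (adjusted p = 0.0479). Its replicate 3 lay at the typical ratio, and the call was lost without replicate 1 (adjusted p = 0.0955), without replicate 2 (0.156) and without replicate 4 (0.146). Cxcl15 lost its call without replicate 2 (adjusted p = 0.0549), without replicate 3 (0.0533) and without replicate 4 (0.0684). Each of these 4 genes rests on 1 probe. Cxcl1 and Cxcl2, the main neutrophil attractants of mouse liver, both had 0.13 and did not pass.

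Among chemokine receptors, 2 of 16 were called higher and 4 lower (37.5%, against 35.4% of all genes), with a median of -0.03. Ccr8, a receptor of regulatory and type 2 T cells, had -0.70, -0.52, -0.52 and -0.30, all below 0. Its mean was -0.51 ± 0.16 (adjusted p = 0.00483), and its 3 probes had means of -0.38, -0.85 and -0.29. These probes are shown because they are richer in G and C than the median member probe, and the value moved with a correction for that. They lie within the same short stretch of chromosome 9 on mm9, the build of the files, and are written as the files give them, with the strand not stated and no base singled out:

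Ccr8 probe 1, chr9:120003456-120003506, GC 43.1%: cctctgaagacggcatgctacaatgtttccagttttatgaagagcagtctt

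Ccr8 probe 2, chr9:120003653-120003699, GC 46.8%: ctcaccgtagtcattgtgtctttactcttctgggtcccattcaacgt

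Ccr8 probe 3, chr9:120003862-120003910, GC 44.9%: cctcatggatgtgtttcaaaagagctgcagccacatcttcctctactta

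After a correction for GC content per array, Ccr8 had -0.25 (adjusted p = 0.0436) and fell short of the size limit. Ccr8 and its ligand Ccl1 therefore both had ratios below the pool whose size is not established. Cxcr1, a neutrophil receptor, had -0.43, -0.32, -0.37 and -0.45, with a mean of -0.39 ± 0.06 (adjusted p = 0.00474). Ccr10, a receptor of skin-homing T cells, had -0.32 ± 0.09 (adjusted p = 0.0105). Both rest on 1 probe, and relative to the probes within 1 Mb neither passed. The lowest mean of all members was that of Cxcr4, the receptor of Cxcl12, at -0.51, -0.96, -1.21 and -0.99. In neither channel did its only probe stand well above background on any array, so no difference from the pool is established for it. With normexp background correction its value was 0.19, the opposite sign.

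The receptors called higher were Ccr1l1 and Ccr3, neighbours on chromosome 9. Ccr1l1, a close relative of Ccr1, had 0.80, 0.82, 0.19 and 0.41, a mean of 0.56 ± 0.31 (adjusted p = 0.0128) on 1 probe. All arrays were above 0, and the values on slide 1 were higher than those on slide 2. Ccr3, the eotaxin receptor, had 0.17, 0.08, 0.54 and 0.54, with a mean of 0.33 ± 0.24 (adjusted p = 0.0389). Of its 3 probes only 1 was well above background everywhere, and it had 0.07. Kept to that probe Ccr3 did not pass (adjusted p = 0.675). Ccr3 also lost its call without replicate 1 (adjusted p = 0.0587), without replicate 3 (0.127) and without replicate 4 (0.124). Ccr2, the receptor of Ccl2, had -0.32, 0.35, 0.72 and 0.43, so the arrays lay on both sides of 0.

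Of 38 interleukins, 6 were called higher and 6 lower (31.6%, against 35.4% of all genes), with a median of 0.03. Il15, which sustains natural killer and memory T cells, had 0.65, 0.84, 0.61 and 0.61 on the 4 arrays. Its mean of 0.68 ± 0.11 (adjusted p = 0.00157) lay far above the spread between arrays. Its 3 probes were well above background on every array and lay on the same side of 0, as did those of Il6ra and Ccr8. They are shown for that reason, as the files give them, on mm9:

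Il15 probe 1, chr8:84861467-84861526, log2 ratio 0.76 ± 0.19: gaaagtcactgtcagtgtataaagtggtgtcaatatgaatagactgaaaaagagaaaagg

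Il15 probe 2, chr8:84867292-84867351, log2 ratio 0.88 ± 0.19: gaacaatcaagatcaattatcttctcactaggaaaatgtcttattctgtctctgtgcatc

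Il15 probe 3, chr8:84874662-84874721, log2 ratio 0.40 ± 0.16: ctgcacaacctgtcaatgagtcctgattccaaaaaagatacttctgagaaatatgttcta

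Relative to the probes within 1 Mb Il15 had 0.39 and remained past the threshold (adjusted p = 0.00822), so its value beside its own surroundings was smaller. Il15ra, the chain that presents IL-15 to other cells, had 0.08 ± 0.12 and did not pass. Il1f6, an agonist of the IL-36 receptor, had 0.67, 0.57, 0.56 and 1.09, the highest mean of all members at 0.72 ± 0.25 (adjusted p = 0.00354). Its 2 probes had means of 1.06 and 0.38, and the second was dim on some arrays. Il19, of the IL-10 family, had 0.50 ± 0.06 on 1 probe (adjusted p = 0.00254). Il1a, an alarmin released by dying cells, had 0.45, 0.50, 0.45 and 0.27, with probe means of 0.23 and 0.61 (adjusted p = 0.00525). Il1b, its neighbour on chromosome 2, had 0.02 ± 0.07 and did not pass. Il17c, an epithelial cytokine, had 0.36 ± 0.07 (adjusted p = 0.00679), from probes at 0.09 and 0.62. Il33, the nuclear alarmin that binds the Il1rl1 receptor, had 0.35 ± 0.11 (adjusted p = 0.0105). With normexp both lost their calls, and Il17c also did so relative to the chromosome median.

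The lowest interleukins were Il24 and Il12b. Il24, of the IL-10 family, had -0.96, -0.39, -0.66 and -0.82, a mean of -0.71 ± 0.24 on 1 probe (adjusted p = 0.0036). Il12b, the subunit common to IL-12 and IL-23, had -0.55, -0.39, -0.46 and -0.65. Its mean was -0.51 ± 0.11 (adjusted p = 0.00324), and its probes gave -0.66 and -0.36. They are shown because both lay below the pool, although the first was well above background in the sample channel on only 2 arrays:

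Il12b probe 1, chr11:44214738-44214797: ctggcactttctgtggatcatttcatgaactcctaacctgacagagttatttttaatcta

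Il12b probe 2, chr11:44221544-44221603: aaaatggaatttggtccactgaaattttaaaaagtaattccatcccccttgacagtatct

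The partner subunits did not pass. Il12a, the partner in IL-12, had -0.51, -0.25, 0.51 and -0.04, and Il23a, the partner in IL-23, had -0.45, 0.05, -0.28 and -0.48. Il1f9, another IL-36 agonist, had -0.40 ± 0.15 (adjusted p = 0.00854), with probes at -0.70 and -0.11, the latter dim in the sample on every array. Il7, which supports lymphocyte precursors, had -0.31 ± 0.15 (adjusted p = 0.02), with 3 probes from -0.71 to 0.05. Relative to the probes within 1 Mb Il7 had -0.05, and it also lost its call without replicate 1 and without replicate 4 (adjusted p = 0.0697 and 0.0661). Il5, the eosinophil growth factor, and Il9, a mast cell factor, had -0.28 each (adjusted p = 0.0245 and 0.0344) on 1 probe each. The call of Il5 did not hold without replicate 1 (adjusted p = 0.0776), replicate 2 (0.0858) or replicate 4 (0.0806). For Il9 the highest adjusted p with 1 replicate left out was 0.116. Il6, which drives the acute phase response of hepatocytes, had 0.49, -0.05, 0.10 and 0.48 and did not pass (adjusted p = 0.105). Il10, the main anti-inflammatory interleukin, had a probe that was dim in both channels and has no measured level here.

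Of 34 interleukin receptors and associated proteins, 4 were called higher and 4 lower (23.5%, against 35.4% of all genes), with a median of -0.002. Il6ra, the binding chain of the IL-6 receptor, had 0.60, 0.37, 0.48 and 0.40. Its mean was 0.47 ± 0.10 (adjusted p = 0.00385), and its 3 probes had means from 0.17 to 0.74. Il6st, the signalling chain of that receptor, had 0.22 ± 0.16 and did not pass. Il12rb2, the IL-12 specific chain, had 0.60, 0.64, 0.34 and 0.40, with a mean of 0.49 ± 0.15 (adjusted p = 0.00458). Il12rb1, the chain that IL-12 and IL-23 receptors share, had -0.72, -0.45, -0.37 and -0.70, with a mean of -0.56 ± 0.18 (adjusted p = 0.00408). The 2 chains of the IL-12 receptor thus lay on opposite sides of the pool on every array, each on 2 probes of the same sign. Il23r, the other chain of the IL-23 receptor, had -0.06 ± 0.09 on 6 probes and did not pass.

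Il4ra, shared by IL-4 and IL-13, had 0.61, 0.54, 0.35 and 0.32, with a mean of 0.46 ± 0.14 (adjusted p = 0.00546). Il1rl2, the IL-36 receptor, had 0.39 ± 0.14 (adjusted p = 0.00913), but its 3 probes ran from -0.10 to 0.84. Il21r, the receptor of a T helper cytokine, had -0.32 ± 0.10 (adjusted p = 0.0124), with both probes below 0. Il11ra1, the IL-11 receptor, had -0.26 ± 0.17 (adjusted p = 0.0447) on 1 probe. Leaving out replicate 1, 3 or 4 in turn ended the call (adjusted p = 0.0721, 0.143 and 0.141). Mouse chromosome 4 holds near-identical copies of Il11ra1, so its probe may read more than 1 copy and the value is uncertain.

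The lowest member with a bright probe was Il3ra, the binding chain of the IL-3 receptor. Its arrays gave -0.83, -0.63, -0.81 and -0.90, with a mean of -0.79 ± 0.11 (adjusted p = 0.00113). Every array lay well below 0, and the call held in every alternative that tested the gene. It rests on 1 probe, printed here because no second probe checks it:

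Il3ra probe, chr14:15182208-15182267: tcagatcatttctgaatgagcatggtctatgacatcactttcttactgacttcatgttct

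**Figure D2:**
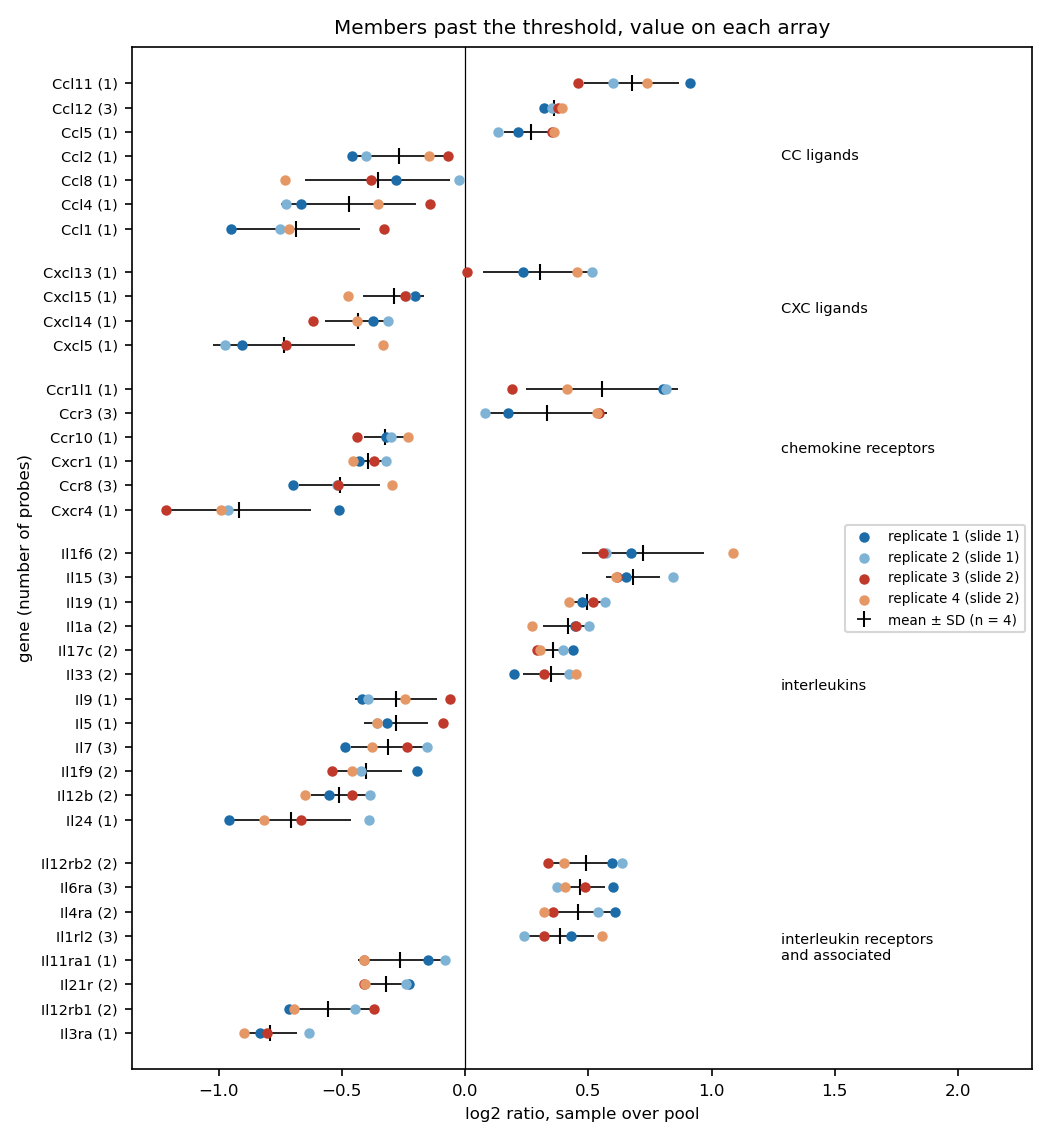
Log2 ratio of sample over pool (horizontal axis) on each of the 4 arrays for the 37 members past the threshold, with the number of probes beside each name and the mean ± SD as a cross and a line. Blue points are slide 1 and red or orange points slide 2. Il15, Il19 and Il3ra have arrays close together, whereas Ccl8 and Cxcl13 have an array near 0.

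The genomic clusters were examined next, because a change of copy number over a cluster would move neighbouring genes together. A cluster was taken as 3 or more members with no more than 500 kb between neighbouring member probes, which gave 8 clusters. Their means ran from -0.20 to 0.27. The smallest two-sided p of an exact sign-flip test on 4 arrays is 0.125, so no cluster could reach the threshold.

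The CXC ligand cluster on chromosome 5, 91188747 to 91334448, had the lowest mean. Its 5 members gave -0.31, -0.23, -0.16 and -0.10 on the 4 arrays, a mean of -0.20 ± 0.09 (exact sign-flip test, p = 0.125). Probes within 1 Mb outside it had a median of 0.19, so the cluster lay 0.38 ± 0.07 below its flanks (-0.48, -0.33, -0.33 and -0.39). Within it Cxcl5, at -0.74, was lowest and Cxcl2, at 0.13, highest. Cxcl5, Cxcl3 and Cxcl15, at the start of the cluster, all had negative means, and Cxcl1 and Cxcl2, at its end, positive ones. Over all 10 probes inside, named or not, the median was -0.08.

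The CC receptor cluster on chromosome 9, from 123689495 on, had the highest mean. It gave 0.07, 0.33, 0.37 and 0.33, a mean of 0.27 ± 0.14 (exact sign-flip test, p = 0.125), against 0.02 in its flanks. With bright probes only the cluster mean was 0.20. Replicate 1 stood below the other arrays. Ccr9, Ccr1, Ccr1l1, Ccr3 and Ccr2 had means above 0, from 0.10 for Ccr1 to 0.56 for Ccr1l1, and of these Ccr1l1 and Ccr3 passed. Over the 17 probes inside the median was 0.21.

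On chromosome 11, neighbouring CC ligands lay on opposite sides of the pool. The cluster from Ccl2 to Ccl1, 81850667 to 81990380, had a mean of 0.08 ± 0.17, with 2 members called higher and 3 lower within 140 kb. Ccl11 had 0.68 and Ccl12 0.36, whereas Ccl8 had -0.36 and Ccl2 -0.27, the calls that lay close to the limit. These 2 lower values depended on processing. Ccl8 had -0.14 after a correction for GC content, and Ccl2 had -0.18 relative to the chromosome median. The value of Ccl1, -0.69, came from a probe dim in the sample and was -0.06 with normexp (adjusted p = 0.445), so it is no measured end of a range. The probes of Ccl11 and Ccl1 are shown as the bright probe with the highest value in the cluster and the dim one with the lowest:

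Ccl11 probe, chr11:81871823-81871882: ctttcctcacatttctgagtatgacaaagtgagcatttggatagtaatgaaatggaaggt

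Ccl1 probe, chr11:81990333-81990380: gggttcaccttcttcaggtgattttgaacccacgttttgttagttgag

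The cluster from Ccl5 to Ccl4, 83341194 to 83476571, had a mean of -0.01 ± 0.06, with Ccl5 at 0.27 and Ccl4 at -0.47. With normexp Ccl5 had 0.07 and Ccl4 -0.24, and neither was called. Ccl3, beside Ccl4 and closely related to it, had 0.24 ± 0.13 (adjusted p = 0.0386), just under the size limit. The cluster of Il4, Il13 and Il5, interleukins of type 2 immunity, had a mean of -0.10 ± 0.01. That SD does not carry the choice of processing, since the mean was -0.26 with bright probes only and -0.01 relative to the chromosome median. Il4 had 0.18 on a probe not well above background in the sample on any array, so no size is established for it. Il5 had -0.28.

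The interleukin clusters on chromosomes 1 and 2 showed the same mixture. The IL-1 receptor cluster on chromosome 1, 40171960 to 40605654, had a mean of 0.04 ± 0.03 over 17 member probes. Il1rl2 had 0.39 and Il1rl1, the IL-33 receptor, -0.22, below the size limit. The IL-10 family cluster, also on chromosome 1, had -0.06 ± 0.16, with Il24 at -0.71 and Il19 at 0.50, both within its 139 kb. The cluster of IL-1 family ligands on chromosome 2 had 0.04 ± 0.10, with Il1f6 at 0.72 and Il1f9 at -0.40. The highest and the lowest member had opposite signs except in the CC receptor cluster. Without the dim probe of Il4, the type 2 interleukin cluster was a further exception. Some of these extremes, such as Cxcl2 and Il1rl1, were not called, and Ccl1 was dim in the sample. Extremes of noisy means near 0 readily differ in sign, and how often other gene clusters show this is not given here. Whether a cluster changed as a whole therefore cannot be read from these signs.

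**Figure D3:**
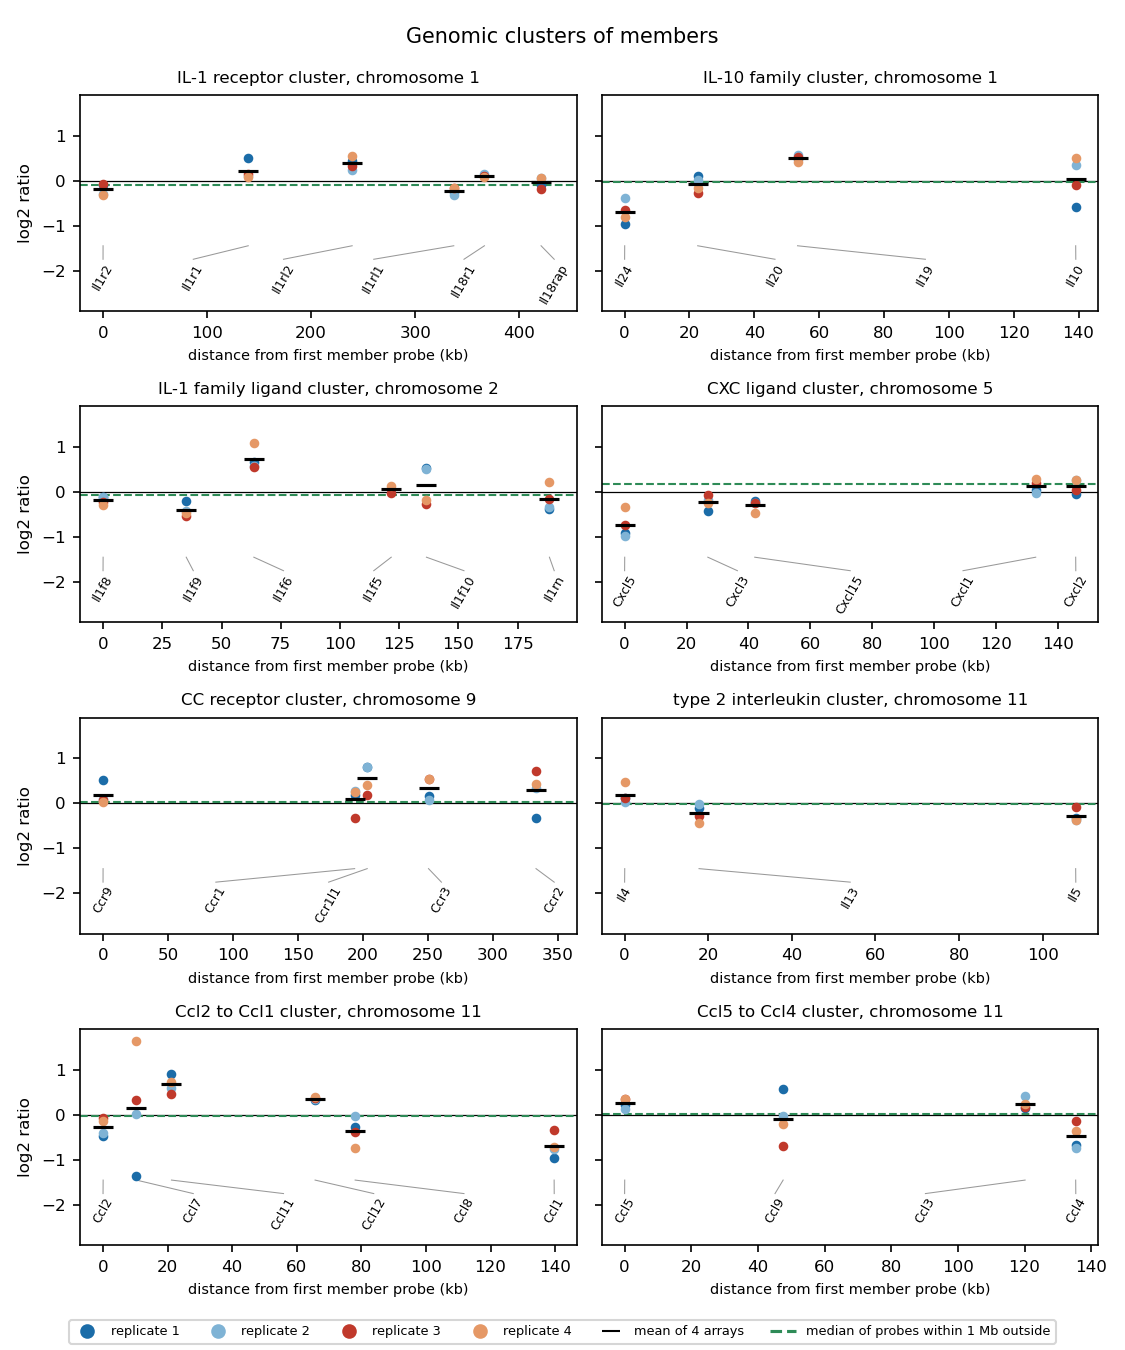
Log2 ratio of sample over pool (vertical axis) against distance from the first member probe in kb (horizontal axis) for the members of the 8 clusters. Points are the 4 arrays, black bars the mean, and the dashed line the median of probes within 1 Mb outside. Within the Ccl2 to Ccl1 cluster Ccl11 lies at 0.68 and Ccl8 at -0.36, and the lower value of Ccl1 is from a dim probe. After a correction for GC content Ccl8 had -0.14.

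Probes of the same gene often disagreed. Of 55 members with at least 2 probes, 27 had probe means on both sides of 0, which is 49.1%, against 56.5% of all autosomal genes with at least 2 probes. The median SD between probes of a member was 0.29, whereas the median SD of a probe between arrays was 0.21. Over all genes these values were 0.26 and 0.20. Il18r1, a chain of the IL-18 receptor, had 0.11 ± 0.03 over arrays, while its 5 probes ran from -0.55 to 0.43. Il18, its ligand, had -0.01 ± 0.14, from probes at -0.59 and 0.57. Cxcl9, an interferon-induced T cell attractant, had 0.14 ± 0.15, from 3 probes between -0.41 and 0.91. The small SD of such a gene mean therefore does not carry the difference between its probes. Of the 58 members with 1 probe 20 were called, or 34.5%, against 41.8% of all autosomal genes with 1 probe. Of the 55 with more probes 17 were called, or 30.9%, against 30.7%.

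**Figure D4:**
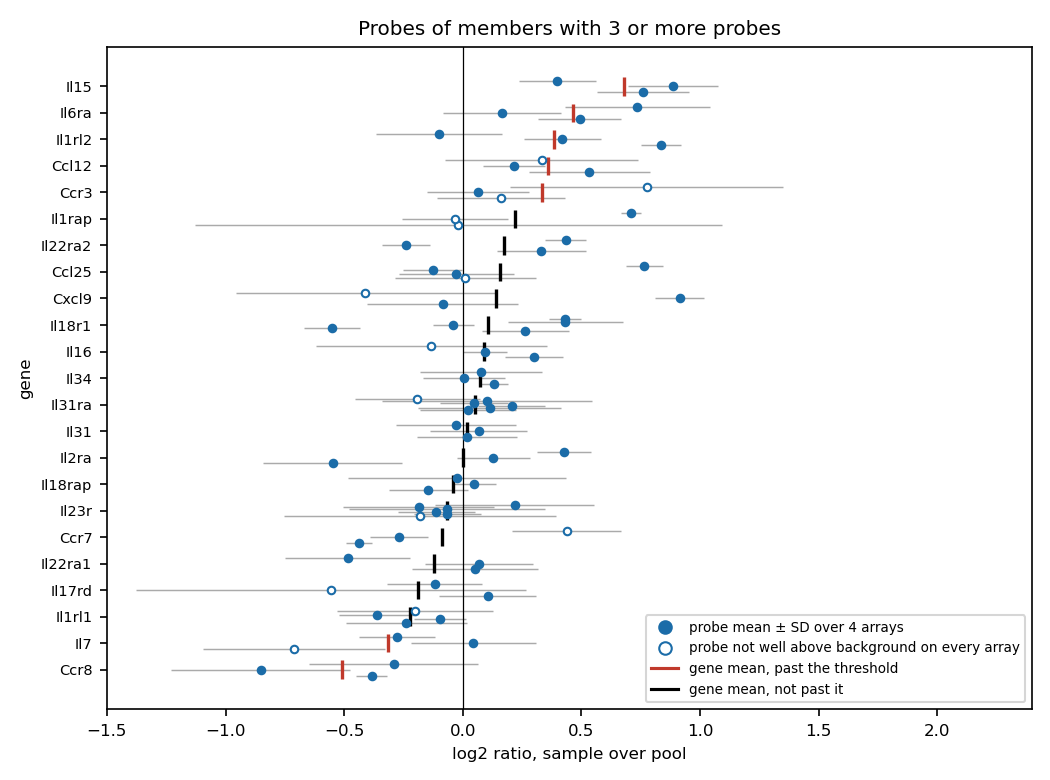
Mean log2 ratio ± SD over 4 arrays (horizontal axis) of each probe of the 23 members with 3 or more probes (vertical axis). Open points are probes not well above background on every array, red bars are means of genes past the threshold and black bars means of other genes. The probes of Il15 and Ccr8 lie on 1 side of 0, whereas those of Il18r1, Il2ra and Ccr7 lie on both.

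The slides were compared as well, although slide and sample cannot be told apart where each slide holds different samples. No member differed at an adjusted p under 0.05 (limma), and 18 of 113 had an unadjusted p under 0.05, against 0 and 10.8% of all autosomal genes. The 2 arrays of slide 1 and the 2 of slide 2 did not overlap for 52.2% of members and 44.6% of all genes. Il17a, the neutrophil-recruiting product of T helper cells, had the lowest p, with -0.05 on slide 1 and 0.87 on slide 2 (limma, adjusted p = 0.372). Its probe was well above background in the sample channel on 1 array. Ccr6, the receptor of Ccl20 and a marker of the cells that make IL-17, went the other way, at 0.46 and -0.41, on probes dim on some arrays.

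Other genes of these pathways had a called share near that of all genes, but most of their means lay below 0. The list held 50 measured genes, further ligands, receptors and signal transducers. Of these 5 were called higher and 10 lower, which is 30% against 35.4% of all genes, with a median of -0.08. A mean above 0 was found for 13 of 50, against 61 of 113 members and 9844 of 20445 autosomal genes. Tollip, an adaptor of IL-1 receptors, had 0.70 ± 0.09 (adjusted p = 0.00136). Jak1 and Jak2, kinases bound to many interleukin receptors, had 0.44 and 0.38, and Jak3, which pairs with the common gamma chain, had -0.90 ± 0.45 (adjusted p = 0.00726). Crlf2, a chain of the TSLP receptor, and Csf2ra, the GM-CSF receptor chain, had -1.49 ± 0.28 and -1.36 ± 0.30 (adjusted p = 0.000821 and 0.00109), on 1 probe each. Of 11 measured leukocyte genes 1 was called, lower (9.09%), with a list median of -0.07. Of 15 measured hepatocyte genes 9 were called, all higher (60%), with a median of 0.66. Over all autosomal genes 35.4% were called, 16.1% higher. The highest hepatocyte gene was Fabp1, a fatty acid carrier, with 5.36 ± 0.51 on 1 probe. Next came Pck1, Cyp2e1 and Tat, liver enzymes, with 2.39, 2.38 and 2.15 (limma, adjusted p up to 0.000587). The hepatocyte genes not called ran from -0.12 for G6pc to 0.20 for Ttr. What lies behind these ratios was not tested. The difference between those lists and the members was not tested.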

How the data were processed

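Per the labels' protocols, DNA from fixed sections was purified with Qiagen reagents, and 250 ng per sample entered Enzo labelling. Per the file headers, the deposited intensity columns come from Agilent Feature Extraction 10.10.1.1 and were background-subtracted, detrended and dye-normalised by a linear method, on build mm9. The deposited log10 ratio column, per the file headers processed Cy5 over Cy3, served as a check over spots that hold no surrogate value. A deposited log2 table of the same arrays, with normalisation not given in the sources used here, correlated with the scanner log2 ratio at 0.91 to 0.92 over 54557 probes, and at no more than 0.69 with another array. Its column medians were -0.04, 0.03, 0.05 and 0.01. Its direction and scale were read from that comparison.

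Here log2 of Cy5 over Cy3 processed intensity was taken, control spots and outlier flags were dropped, and spots and then probes of a gene were averaged. Centring used each array's median over 52385 autosomal probes, with no loess or quantile step. The gene test was limma 3.58.1 (R 4.3.3) with Benjamini-Hochberg adjustment over 20445 autosomal genes, after tests on simulated data. Exon and intron positions were not used here. The values of 1 member enter the counts and cluster means but are not reported here by themselves or drawn in the cluster plot. Members, lists and tests were chosen with earlier results of these data known. The rule named, per role, up to 4 called members in each direction with 1 sign on all arrays, cluster extremes and Il11ra1. Il17c, Il33, Il9 and members that complete a receptor, ligand pair or cluster, and genes of the pathway list, were chosen after their values were seen. Of members dim in the sample channel on every array, Ccl1 was judged by a bound. Il4 and the dim probe of Il1f9 are given by their values, which establish no size. Alternatives changed background correction, source table, dim probes, probe summary, centring, regional or GC offsets, slides, size limit and replicates.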

Additional observations from a re-analysis of the deposited data

Results flagged for a closer look

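Of 122 values checked (113 members, 8 clusters and the members' median), 7 had an array farther from the other 3 than Dixon's 95% critical value for 4 samples allows. Chance flags about 1 in 20, so this number is near what chance gives. Replicate 1 stood apart for Ccr9, at 0.521, for Il1r1, the signalling IL-1 receptor, at 0.495, and for the CC receptor cluster, at 0.0671. Replicate 3 stood apart for Ccr1, at -0.318, and for Il5, at -0.0892. Replicate 4 stood apart for Cxcl15, at -0.474, and replicate 2 for Il18r1, at 0.151.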

How the results depend on the processing

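No paired analysis was possible because there was 1 group. Of the 37 called members, 9 kept their call and direction in every alternative that tested them, namely Ccl11, Ccr1l1, Cxcl5, Il12b, Il12rb1, Il15, Il1f6, Il24 and Il3ra. A mean under 0.5 in size fails the size limit of 0.5 by rule. With that limit and the 2-probe limit set aside 16 members kept their call, also Cxcl14, Il12rb2, Il19, Il1a, Il1rl2, Il4ra and Il6ra. How many of all genes kept theirs is not given here. Leaving out 1 replicate gave 13 to 16 members higher and 14 to 20 lower, and over all genes 2477 to 2682 and 2987 to 3292. With a size limit of 0.5 there were 4 higher and 8 lower members, 947 and 1436 of all genes and 6 genes of the pathway list. With at least 2 probes a gene there were 11 higher and 7 lower members, and 1772 and 1985 of all genes. The median of the members was 0.000491 with bright probes only, 0.0504 with at least 2 probes, -0.0105 when centred on the mode and -0.0185 relative to probes within 1 Mb. It was 0.00307 to 0.0236 with 1 replicate left out. The IL-10 family cluster took the other sign with normexp (0.00488) and relative to the chromosome (0.0193). The IL-1 family ligand cluster did so with bright probes (-0.0328), with the median over probes (-0.0495) and, from -0.00101 to 0.0782, with 1 replicate left out. The Ccl5 to Ccl4 cluster did so with normexp (0.0812), the deposited table (0.00713), relative to the chromosome (0.0811), with the median over probes (0.0644) and, from -0.0395 to 0.00795, with 1 replicate left out. Cxcr4 reversed with normexp, at 0.19. The cause was not tested. With normexp 26 of the 37 calls were kept, and relative to probes within 1 Mb 29. The slide as a random block was not run for clusters. Dim probes limit, among others, Ccl1, Cxcr4, Ccl7, Il10, Il4, Ccl9, Il1f10, Ccr3, Cxcr2, Il17a and Il12a.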

Other observations

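The same families on the X chromosome, which the autosomal rule left out, lay below the pool, as X probes did as a whole. The median of all 2172 X probes was -0.86 ± 0.02 (SD, n = 4). The labels used here state no sex. Il1rapl2 had -0.95 ± 0.09 on 7 probes, Il1rapl1 -0.81 ± 0.31 on 5 and Cxcr3, a receptor of Cxcl9, -0.69 ± 0.05 on 3. Il2rg, the common gamma chain, had -0.50 ± 0.18 on 1 probe and Il13ra1 -0.29 ± 0.16 on 2.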
